A study of Rattus norvegicus with 20 samples.

Results

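Dimethylation at lysine 27 (K27me2) was measured in the failed and the normal heart of Dahl rats with 4 of the 20 arrays of the study: the K27me2 chromatin immunoprecipitate (ChIP) of each heart, and the genomic DNA of each heart taken before immunoprecipitation (pre-IP). They were chosen by their labels. The rest of the series is made of 14 ChIP arrays for 7 other histone marks and 2 mRNA arrays, and the mRNA arrays are used below beside the mark. Dahl rats are lines bred for how their blood pressure responds to dietary salt. The failed group is left ventricle with congestive heart failure and the normal group is left ventricle of a Dahl rat with a normal heart, both at 19 weeks of age. A high-sodium diet is named for the failed mRNA sample only, and the labels name no diet, sex or surgery for the 4 arrays. The labels call the mRNA samples left ventricular myocytes and give no cell type for the DNA, so cells other than myocytes are open to contribute. They do not name the histone that carries lysine 27. The study used a single left ventricle specimen for each assay and heart, and the sources used here do not say whether the assays of a heart shared a specimen. With 1 array per assay and heart there is no replicate error, no test and no p-value for any value below. A difference between the failed and the normal heart is a difference between arrays, in which heart, specimen and hybridisation cannot be told apart.

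Lysine 27 of histone H3 is methylated by Polycomb repressive complex 2, whose catalytic subunits are EZH1 and EZH2 and whose core also holds EED and SUZ12. In mammalian cells the dimethyl form is the most widespread of its products and covers broad stretches of chromatin outside active genes, while the trimethyl form gathers at silent developmental regulators. Active genes carry acetylation or little methylation at the same lysine, and the demethylases KDM6A and KDM6B remove the methyl groups.

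The arrays are Affymetrix Rat Genome 230 2.0 expression arrays, so each value reports how much ChIP or pre-IP DNA bound to probes designed for a transcript, not to a promoter. Each array was scaled to a median of 100, values under 10 were set to 10 (the floor), and log2 was taken. The resulting scaled intensities are written below without a unit. Enrichment is the log2 ChIP level less the log2 pre-IP level, both of a single heart, and a difference is failed minus normal. A value of 1 on this scale is a 2-fold step. Counts of genes past such a step use the 6991 of 14217 genes whose mean level over the 4 arrays reached the median of all probe sets. The 4 arrays had deposited medians between 365 and 403, and between 2.14% and 3.10% of their probe sets were under the floor.

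The K27me2 patterns of the failed and the normal heart were more alike than either was to any other array of the series. Spearman's rank correlation across the 14217 genes, a description over genes that are not independent replicates, was 0.85 between the failed and the normal K27me2 array. The array next most alike to both was the failed K20me3 array, with a rank correlation of 0.78 for the failed and 0.78 for the normal K27me2 array. Each K27me2 array had a rank correlation of 0.75 with the pre-IP array of its own heart, and the pre-IP arrays had 0.82 with each other. Enrichment correlated between the hearts with a rank correlation of 0.59 over the 6991 genes and 0.44 over all genes.

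Genes with low K27me2 in both hearts outnumbered genes with high K27me2. Of the 6991 genes, 448 (6.41%) were depleted at least 2-fold in both hearts, and 102 (1.46%) were enriched at least 2-fold in both. In single hearts 839 genes were depleted in the failed and 782 in the normal heart, against 486 enriched in the failed and 440 in the normal heart. Only 6 genes (0.0858%) were past 2-fold in opposite directions. The surplus of depleted over enriched genes rested on the pre-IP reference. For ChIP levels set against the median of all genes, with no pre-IP, 3 of the 6991 genes lay at least 2-fold below it in both hearts and 1679 at least 2-fold above it. The level filter keeps bright genes, which sets these last counts in part.

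**Figure D1:**
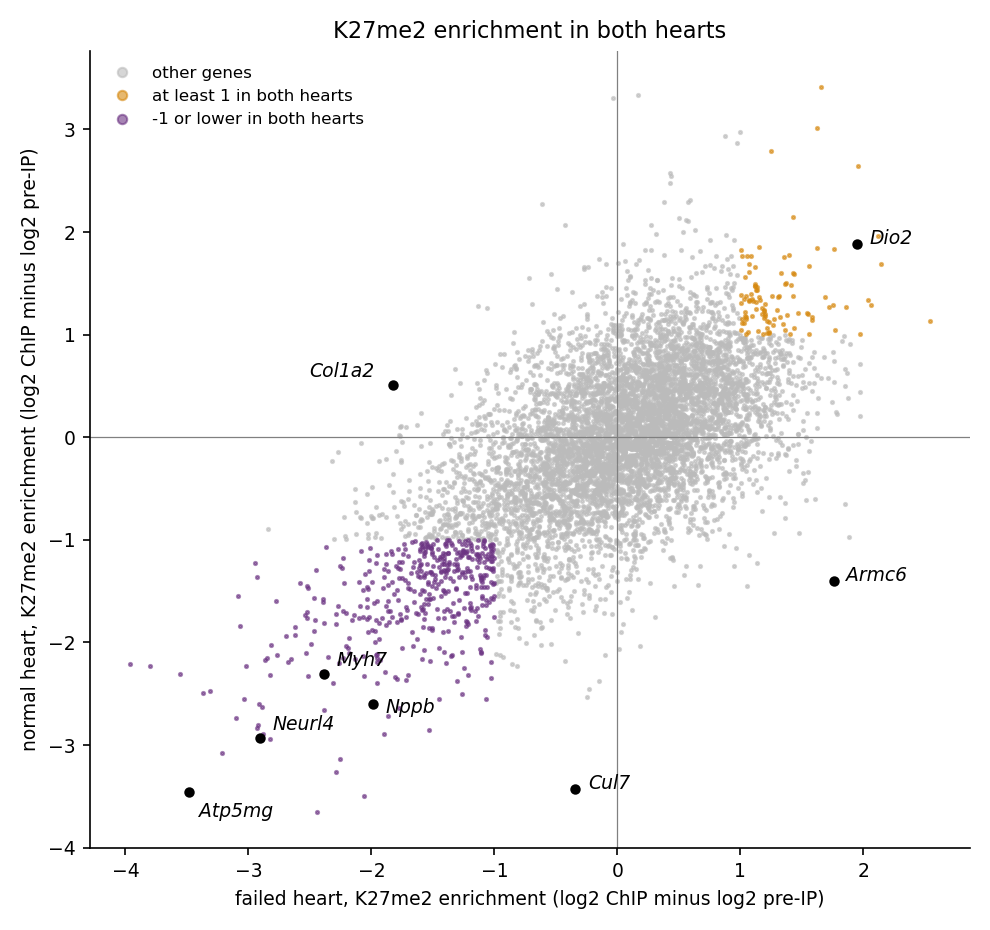
K27me2 enrichment (log2 ChIP minus log2 pre-IP) in the failed heart (x axis) and the normal heart (y axis) for the 6991 genes passing the level filter, 1 point per gene. Purple points are the 448 genes at -1 or lower in both hearts and orange points the 102 genes at 1 or higher in both, with named genes in black. Most genes run along the diagonal, and Cul7, Armc6 and Col1a2 lie away from it.

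The 10 lowest enrichments with no value at the floor belonged to genes of varied function, among them subunits of ATP synthase and of a proton pump and regulators of RNA. Atp5mg, which encodes a subunit of mitochondrial ATP synthase, had ChIP levels of 103 in the failed and 104 in the normal heart and pre-IP levels of 1150.5 in the failed and 1139 in the normal heart. Its enrichment was -3.48 in the failed and -3.46 in the normal heart. Neurl4 had ChIP levels of 37.0 in the failed and 36.6 in the normal heart, against pre-IP levels of 277 in the failed and 279 in the normal heart. For both genes the ChIP and pre-IP values of the failed and the normal heart lay close together, and every ChIP value was far below every pre-IP value. Atp6v0a1, a subunit of the proton pump of acidic organelles, was like them, with ChIP levels of 53.9 in the failed and 53.4 in the normal heart and pre-IP levels of 462 in the failed and 355 in the normal heart.

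Of the other 7 of these 10 genes, 6 were lower in one heart than in the other by more than 0.5. Tspyl2, a nuclear protein gene, had enrichments of -3.96 in the failed and -2.21 in the normal heart. Zfp36, which encodes tristetraprolin, a protein that speeds decay of inflammatory mRNAs, had -3.80 in the failed and -2.23 in the normal heart. Srsf7, a splicing factor gene, had -3.56 in the failed and -2.31 in the normal heart. All 3 were more strongly depleted in the failed heart. Zbtb22, a zinc finger protein gene, went the other way with -2.44 in the failed and -3.65 in the normal heart. Midn had -3.37 in the failed and -2.49 in the normal heart, Naa38, a subunit of an N-terminal acetyltransferase, had -3.31 in the failed and -2.47 in the normal heart, and Leng9 had -3.22 in the failed and -3.08 in the normal heart. The second probe set of Leng9 had a mean enrichment over both hearts of -2.06.

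The 10 highest enrichments belonged to genes of varied function as well, some with little mRNA in heart and some with mRNA above the array median. Dio2, the deiodinase that activates thyroid hormone, was the most even, with ChIP levels of 229 in the failed and 236 in the normal heart over pre-IP levels of 59.2 in the failed and 64.2 in the normal heart. Its enrichment was 1.95 in the failed and 1.88 in the normal heart, and both mRNA levels were under the floor. Smox, which oxidises the polyamine spermine, had enrichments of 2.12 in the failed and 1.96 in the normal heart. Cntn2, an adhesion protein of neurons, had 2.14 in the failed and 1.69 in the normal heart. Endou, an RNA-cutting enzyme, had 1.95 in the failed and 2.65 in the normal heart.

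For the other 6 of these 10 genes the pre-IP level differed at least 2-fold between the hearts. Irag2 had ChIP levels of 267 in the failed and 272 in the normal heart, but pre-IP levels of 84.6 in the failed and 25.5 in the normal heart. Its enrichment was 1.66 in the failed and 3.41 in the normal heart. The epithelial keratin gene Krt4 and Mlec, a lectin of the endoplasmic reticulum, had the same pattern: pre-IP levels of Krt4 were 102 in the failed and 35.8 in the normal heart, and those of Mlec were 118 in the failed and 30.4 in the normal heart. The second probe set of Mlec had a mean enrichment of 0.56. Slc45a4 had pre-IP levels of 142 in the failed and 20.8 in the normal heart, and Ghrh, the hypothalamic releasing hormone of growth hormone, had 137 in the failed and 26.6 in the normal heart. Bbs9, a subunit of a complex that carries proteins to cilia, went the other way with 42.8 in the failed and 98.2 in the normal heart.

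Promoter sequence was set beside the mark because trimethylation at lysine 27 is known to gather at promoters rich in CpG. RefSeq promoters of the GRCr8 build, from 250 bases before to 50 after the annotated start, were matched for 11700 genes. The dinucleotide CG occurred in 98.8% of them, with a median of 19 per promoter (both strands read the same). In 5 groups from few to many CG relative to base composition, the median enrichment was 0.16, 0.06, -0.04, -0.06 and -0.09 in the failed and 0.11, 0.07, -0.04, -0.05 and -0.09 in the normal heart. ChIP levels relative to all genes did not fall alike, with 0.015, -0.002, -0.008, 0.012 and -0.029 in the failed heart. In the normal heart they were -0.042, 0.002, 0.002, 0.026 and 0.042. Pre-IP levels rose, with -0.15, -0.06, 0.09, 0.08 and 0.10 in the failed heart. In the normal heart these were -0.16, -0.07, 0.07, 0.10 and 0.14. Genes were also split into 3 groups by mRNA level, after the data were seen. In the group with the most mRNA the medians did not follow CG, with -0.24, -0.23, -0.25, -0.26 and -0.25 in the failed and -0.22, -0.15, -0.27, -0.18 and -0.18 in the normal heart. In the group with the least mRNA they were highest where CG was scarce, with 0.27, 0.21, 0.15, 0.17 and 0.13 in the failed and 0.26, 0.19, 0.17, 0.11 and 0.13 in the normal heart. There the pre-IP level was lowest where CG was scarcest, at -0.29 in the failed and -0.40 in the normal heart. The ChIP level of those genes was -0.05 in the failed and -0.10 in the normal heart. The array probes lie in transcripts, so the promoters themselves were not measured.

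The windows at the annotated starts of 5 named genes are shown because they span this range. Atp2a2, a calcium pump gene of heart muscle, Neurl4, and Myh7, a myosin gene of heart muscle, were depleted in both hearts. Their windows held 52, 34 and 6 CG. Dio2 and Smox were enriched in both hearts with 4 and 2. Other genes named above for high enrichment had more CG in their windows, which are not printed. These held 8 for Ghrh, 11 for Krt4, 19 for Cntn2, 21 for Bbs9 and 25 for Mlec. Sequences are on the strand of the gene, 5′ to 3′, with every CG in capitals. They lie in GRCr8 at chr12:39733269-39733568 (plus strand, Atp2a2), chr10:55124074-55124373 (plus strand, Neurl4), chr15:32438145-32438444 (minus strand, Myh7), chr6:115410545-115410844 (minus strand, Dio2) and chr3:139204351-139204650 (plus strand, Smox).
Atp2a2: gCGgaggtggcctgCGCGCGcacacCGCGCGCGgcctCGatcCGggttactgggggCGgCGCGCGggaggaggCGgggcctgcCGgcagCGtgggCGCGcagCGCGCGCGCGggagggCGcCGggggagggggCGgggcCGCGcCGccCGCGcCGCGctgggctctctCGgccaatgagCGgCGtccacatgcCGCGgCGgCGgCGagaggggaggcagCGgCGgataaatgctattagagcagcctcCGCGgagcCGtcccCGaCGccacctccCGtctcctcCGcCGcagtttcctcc
Neurl4: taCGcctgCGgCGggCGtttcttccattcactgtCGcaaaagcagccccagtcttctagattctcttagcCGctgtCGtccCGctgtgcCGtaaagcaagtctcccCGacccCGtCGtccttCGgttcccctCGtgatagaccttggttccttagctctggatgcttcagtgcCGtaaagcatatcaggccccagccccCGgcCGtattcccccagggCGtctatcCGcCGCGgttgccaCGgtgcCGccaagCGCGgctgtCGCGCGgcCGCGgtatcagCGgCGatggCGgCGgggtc
Myh7: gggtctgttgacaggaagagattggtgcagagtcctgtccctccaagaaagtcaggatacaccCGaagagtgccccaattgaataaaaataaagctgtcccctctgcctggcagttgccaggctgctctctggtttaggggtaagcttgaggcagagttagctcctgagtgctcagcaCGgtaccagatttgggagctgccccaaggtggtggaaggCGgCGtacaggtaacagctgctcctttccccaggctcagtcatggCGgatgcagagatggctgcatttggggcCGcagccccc
Dio2: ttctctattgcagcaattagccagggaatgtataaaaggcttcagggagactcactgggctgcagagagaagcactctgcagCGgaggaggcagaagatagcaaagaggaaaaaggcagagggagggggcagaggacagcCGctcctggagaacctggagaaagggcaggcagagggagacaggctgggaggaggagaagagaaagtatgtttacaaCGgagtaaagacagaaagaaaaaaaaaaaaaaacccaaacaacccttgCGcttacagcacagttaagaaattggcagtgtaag
Smox: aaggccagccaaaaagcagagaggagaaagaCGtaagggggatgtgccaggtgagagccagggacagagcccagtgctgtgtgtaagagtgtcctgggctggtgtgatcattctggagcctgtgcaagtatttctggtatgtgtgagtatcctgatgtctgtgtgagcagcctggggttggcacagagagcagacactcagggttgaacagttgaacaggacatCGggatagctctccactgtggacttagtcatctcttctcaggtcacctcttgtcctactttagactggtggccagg
In the Myh7 window the bases before the annotated start end like an intron, and a start codon follows. That window may thus lie inside the gene, away from the promoter. The window of Nppb, not printed, held 9 CG, and its enrichment was -1.98 in the failed and -2.60 in the normal heart. Depletion at the transcript probes was thus found beside windows with few and with many CG, and so was enrichment.

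Enrichment was lower the more mRNA a gene had, in both hearts. Genes were put into 10 groups of 1421 or 1422 by mRNA level in the same heart. The median enrichment was 0.24 in the lowest and -0.38 in the highest group of the failed heart, and 0.26 in the lowest and -0.35 in the highest group of the normal heart. In the highest group 22.6% of genes were depleted at least 2-fold in the failed and 21% in the normal heart, and in the lowest group 6.82% in the failed and 7.67% in the normal heart. Enriched genes ran the other way: 2.53% of the highest group in the failed and 3.66% in the normal heart, against 13.4% of the lowest group in the failed and 16.4% in the normal heart. Across genes the rank correlation of enrichment with mRNA was -0.25 in the failed and -0.22 in the normal heart.

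The ChIP level alone did not fall with mRNA. Its rank correlation with mRNA was 0.0021 in the failed and 0.058 in the normal heart. The pre-IP level was higher in genes with more mRNA, with a rank correlation of 0.18 in the failed and 0.21 in the normal heart. Its group medians ran from -0.26 to 0.45 relative to all genes in the failed and from -0.35 to 0.53 in the normal heart. Among genes of like pre-IP level, a split into 5 groups added after the data were seen, the rank correlation of ChIP level with mRNA was -0.03, -0.18, -0.28, -0.32 and -0.19 from the lowest to the highest pre-IP group of the failed heart. In the normal heart it was -0.01, -0.12, -0.18, -0.24 and -0.11. The part of the pre-IP level in the relation to mRNA was not tested further.

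A ChIP array of the same heart gave a reference in which pre-IP DNA plays no part, a comparison also added after the data were seen. The rank correlation with mRNA was -0.28 in the failed and -0.29 in the normal heart for log2 K27me2 ChIP minus log2 ChIP of acetylated histone H3 (H3ac), a mark of active genes. Against K20me3, a mark of condensed chromatin, the rank correlation was -0.05 in the failed and -0.03 in the normal heart. Against K9me2, another broad mark of silent chromatin, it was -0.0019 in the failed and 0.071 in the normal heart. Genes with much mRNA thus had less K27me2 relative to H3ac, while K27me2 relative to K20me3 or K9me2 followed mRNA hardly at all. H3ac enrichment over pre-IP itself had a rank correlation with mRNA of 0.14 in the failed and 0.16 in the normal heart. The H3ac contrast thus does not isolate K27me2.

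**Figure D2:**
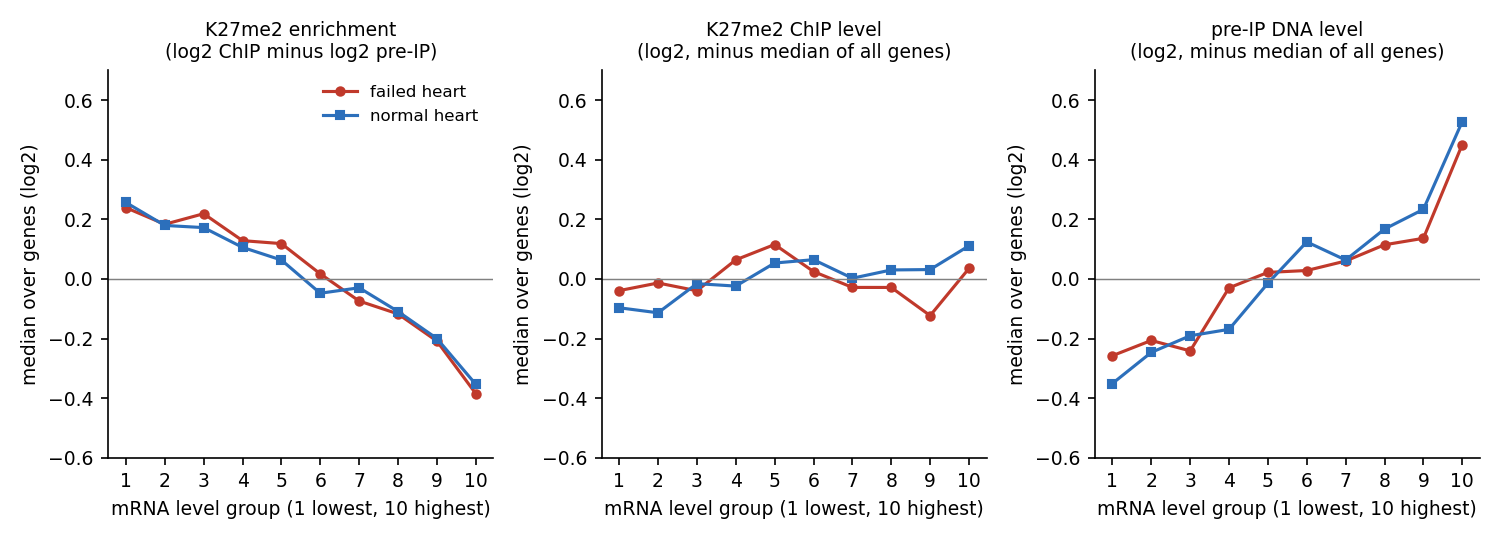
Medians over genes in 10 groups by mRNA level of the same heart (1 lowest, 10 highest), for the failed heart (red circles) and the normal heart (blue squares). Enrichment falls from about 0.2 to about -0.4 in both hearts, the ChIP level stays between -0.12 and 0.12, and the pre-IP level rises.

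Genes of the heart muscle's contractile apparatus and energy supply were depleted of K27me2 over pre-IP in both hearts. The 17 measured of 19 adult sarcomere genes had a median enrichment of -1.07 in the failed and -1.22 in the normal heart, against 0.01 and 0.00 over all genes. Of them, 14 were below 0 in both hearts, against 32.1% of all genes, and 6 were depleted at least 2-fold in both, against 4.98% of all genes. None of the 17 was enriched at least 2-fold in both, against 1.9% of all genes. Myh7, the slow myosin heavy chain, had ChIP levels of 46.8 in the failed and 60.1 in the normal heart and pre-IP levels of 244 in the failed and 298 in the normal heart. Both ChIP values lay under both pre-IP values, and enrichment was -2.38 in the failed and -2.31 in the normal heart. Its second probe set had a mean enrichment of -2.17. Myom1, which links thick filaments at the M band, was the exception, with enrichments of 0.93 in the failed and 0.34 in the normal heart. Ttn, the giant elastic protein titin, had 0.16 in the failed and -0.61 in the normal heart.

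Of the 42 respiratory chain genes 37 were measured, with a median of -0.76 in the failed and -0.83 in the normal heart. In both hearts 33 were below 0 and 11 were depleted at least 2-fold. Cox6a2, the muscle form of a cytochrome oxidase subunit, had ChIP levels of 136 in the failed and 179 in the normal heart, against pre-IP levels of 495 in the failed and 625 in the normal heart. Ndufa5, a complex I subunit, had enrichments of -1.84 in the failed and -1.75 in the normal heart. Cox5a, with 0.34 in the failed and 0.46 in the normal heart, and Cox4i1, with 0.69 in the failed and 0.03 in the normal heart, were the members above 0 in both.

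For these 2 lists the depletion came with high pre-IP levels and not with low ChIP levels. Sarcomere genes had a median ChIP level 0.10 above all genes in the failed and 0.092 above in the normal heart, and a median pre-IP level 1.08 above in the failed and 1.36 above in the normal heart. Respiratory chain genes had ChIP levels 0.16 above all genes in the failed and 0.71 above in the normal heart, with pre-IP levels 0.78 above in the failed and 1.21 above in the normal heart. Without pre-IP the direction therefore turned for both lists. K27me2 ChIP set against H3ac ChIP, where no pre-IP enters, was -1.41 in the failed and -2.04 in the normal heart for sarcomere genes and -1.05 in the failed and -1.19 in the normal heart for respiratory chain genes. H3ac enrichment over pre-IP was itself above 0 there. It was 0.35 in the failed and 0.36 in the normal heart for sarcomere genes, and 0.40 and 0.88 for respiratory chain genes. The H3ac contrast thus does not isolate K27me2. Against K20me3 ChIP the sarcomere median was 0.16 in the failed and -0.28 in the normal heart, and the respiratory chain median -0.24 in the failed and -0.22 in the normal heart. Why pre-IP DNA was high at these genes was not tested.

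The other lists of genes active in heart muscle or in most cells had smaller shifts in the same direction. The median was -0.64 in the failed and -0.54 in the normal heart over 28 proteasome genes, of which 18 were below 0 in both. It was -0.73 in the failed and -0.41 in the normal heart over 17 glycolysis genes, of which 9 were below 0 in both. Fatty acid oxidation genes (27) had -0.23 in the failed and -0.45 in the normal heart, and calcium handling genes (13) had -0.35 in the failed and -0.30 in the normal heart. Cardiac transcription factor genes (13) had -0.44 in the failed and -0.34 in the normal heart, and cardiac channel genes (14) -0.23 in the failed and -0.42 in the normal heart. Relative to all genes, ChIP levels were 0.39 in the failed and 0.40 in the normal heart for fatty acid oxidation. For calcium handling they were 0.07 and 0.39. Pre-IP levels of both lists were higher still. Proteasome and glycolysis genes had ChIP levels below all genes in the failed heart (-0.15, -0.23) and above in the normal heart (0.17, 0.19). Their pre-IP levels were above all genes in both hearts. Transcription factor genes had ChIP levels of -1.02 in the failed and -0.43 in the normal heart, and channel genes -0.21 and -0.23. Atp2a2, the calcium pump of the sarcoplasmic reticulum, had -2.06 in the failed and -3.50 in the normal heart, with mean enrichments of its 5 probe sets between -2.78 and -0.62. Pln, which encodes phospholamban, the inhibitor of that pump, had -1.89 in the failed and -2.28 in the normal heart. Ribosomal protein genes, of which 21 of 40 were measured, had medians of -0.16 in the failed and -0.17 in the normal heart. Their ChIP levels were 2.34 above all genes in the failed and 2.53 above in the normal heart, and their pre-IP levels 2.84 above in the failed and 2.67 above in the normal heart. Ribosomal protein genes have many processed copies in mammalian genomes that such probes may not tell apart.

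Immediate early and stress genes, which cells switch on within minutes of a stimulus, were split. The 29 measured of 31 had a median of -0.58 in the failed and -0.40 in the normal heart, with 17 below 0 and 5 above 0 in both hearts and 8 depleted at least 2-fold in both. Junb, a subunit of the AP-1 transcription factor, had ChIP levels of 75.4 in the failed and 70.4 in the normal heart and pre-IP levels of 556 in the failed and 522 in the normal heart. Its enrichment was -2.88 in the failed and -2.89 in the normal heart. Atf3, a stress-induced transcription factor, stood at the other end with 1.43 in the failed and 1.38 in the normal heart, and Hmox1, the inducible heme oxygenase, had 0.94 in the failed and 0.79 in the normal heart. Pre-IP levels of the list were 1.11 above all genes in the failed and 1.24 above in the normal heart, and ChIP levels 0.16 above in the failed and 0.14 above in the normal heart.

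Developmental transcription factor genes, most of them with little mRNA in these hearts, were low as well, and for them the ChIP level itself was low. The 103 measured of 150 had a median enrichment of -0.75 in the failed and -0.42 in the normal heart, with 60 below 0 and 10 above 0 in both hearts and 12 depleted at least 2-fold in both. Their median ChIP level was 0.69 below all genes in the failed and 0.63 below in the normal heart, while their pre-IP level was 0.13 below in the failed and 0.14 below in the normal heart. The list differs in this from the sarcomere and respiratory chain lists, whose ChIP levels were at or above those of all genes. Many members are dim: 38 of the 103 passed the level filter and 12 had a value at the floor. With the floor raised to 50 the median was -0.40 in the failed and -0.09 in the normal heart.

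Set against ChIP of K20me3 and K9me2, with no pre-IP, developmental genes were low as well. K27me2 minus K20me3 ChIP had a median of -0.99 in the failed and -0.75 in the normal heart, and 69 of the 103 genes were below 0 in both, against 4303 of all 14217 genes. K27me2 minus K9me2 ChIP had a median of -0.70 in the failed and -0.54 in the normal heart, with 68 below 0 in both, against 4573 of all genes. Other lists were as low against K9me2: the 73 neuronal receptor genes had -0.69 in the failed and -0.43 in the normal heart, and the 13 calcium handling genes -0.53 in the failed and -0.65 in the normal heart. Against H3ac ChIP the developmental median was -0.52 in the failed and -0.06 in the normal heart, while neuronal receptor genes had 0.80 in the failed and 0.98 in the normal heart. Over all genes each of these medians lay between -0.02 and 0.02. Over pre-IP, which these marks share with K27me2, the list medians were 0.23 in the failed and 0.37 in the normal heart for K20me3, -0.0013 in the failed and 0.27 in the normal heart for K9me2, and 0.76 in the failed and 1.05 in the normal heart for K9me3. H4ac, with -1.09 in the failed and -0.72 in the normal heart, and H3ac, with -0.40 in the failed and -0.27 in the normal heart, were low there too.

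Among them the Hox genes, which set position along the body axis, were singled out after their values were seen. Of 18 measured, 14 were below 0 in both hearts and 1 was above, with a median of -0.93 in the failed and -0.84 in the normal heart. Hoxd8 had ChIP levels of 77.8 in the failed and 111 in the normal heart and pre-IP levels of 207 in the failed and 198 in the normal heart. Hoxa7 had ChIP levels of 120.1 in the failed and 125 in the normal heart and pre-IP levels of 183 in the failed and 188 in the normal heart. In both genes each ChIP value was under each pre-IP value. Hoxb3 was the member above 0 in both hearts, with 0.25 in the failed and 1.09 in the normal heart. Of the 18, 4 passed the level filter and 2 had a value at the floor. The 7 Sox genes had -1.02 in the failed and -0.34 in the normal heart, the 5 Nkx genes -1.30 in the failed and -1.10 in the normal heart, and the 5 Pou genes -1.08 in the failed and -1.47 in the normal heart. Of these, 2 Sox, 2 Nkx and 1 Pou passed the level filter, and 2 Sox and 2 Pou genes had a value at the floor. The 5 Lhx genes had -0.89 in the failed and -0.18 in the normal heart. The 4 Gata genes had -0.08 in the failed and -0.55 in the normal heart, and the 4 Irx genes -0.12 and -0.43. The 6 Pax genes, near 0, had 0.03 in the failed and 0.12 in the normal heart. By the rule for named genes Nkx6-1, a factor of neural tube and pancreas, was at the low end with -1.89 in the failed and -1.91 in the normal heart, and Pax4, a pancreatic factor, at the high end with 0.54 in the failed and 2.00 in the normal heart.

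Over pre-IP, genes of germ cells and of cytokine and chemokine signalling had higher K27me2 medians than genes at large in both hearts. Of 37 germline genes 27 were measured, with a median of 0.46 in the failed and 0.33 in the normal heart. In both hearts 20 were above 0, against 33.2% of all genes, and 2 were below 0. Of the 27, 0 were enriched at least 2-fold in both hearts, against 1.9% of all genes. Spo11, which cuts DNA to start meiotic recombination, had ChIP levels of 180 in the failed and 180.3 in the normal heart and pre-IP levels of 71.6 in the failed and 103 in the normal heart. Both ChIP values were above both pre-IP values, and enrichment was 1.33 in the failed and 0.81 in the normal heart. Odf1, a sperm tail protein, had 0.50 in the failed and 2.14 in the normal heart, with pre-IP levels of 180.4 in the failed and 40.7 in the normal heart. Sycp3, of the synaptonemal complex, had 0.27 in the failed and -1.74 in the normal heart. The germline ChIP level was 0.74 above all genes in the failed and 0.46 above in the normal heart, so this list was high without pre-IP as well. Set against H3ac ChIP, the germline median was 0.62 in the failed and 0.70 in the normal heart. Against K20me3 ChIP it was 0.35 in the failed and 0.10 in the normal heart. Against K9me2 ChIP it was low, with -0.23 in the failed and -0.17 in the normal heart. Over pre-IP, germline K9me2 was high too, with 0.46 in the failed and 0.45 in the normal heart.

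Of 79 cytokine and chemokine genes 67 were measured, with a median of 0.36 in the failed and 0.20 in the normal heart, 35 above 0 in both and 11 below 0 in both. Of the 67, 1 was enriched at least 2-fold in both hearts, against 1.9% of all genes. Ccl17, a chemokine that draws T cells, had ChIP levels of 312 in the failed and 171 in the normal heart and pre-IP levels of 115 in the failed and 81.7 in the normal heart. Cx3cr1, the fractalkine receptor, had 0.43 in the failed and 2.58 in the normal heart, with a pre-IP level 2.09 higher in the failed heart. Ccl21, a lymph node homing chemokine with mRNA of 1499 in the failed and 534 in the normal heart, was low with -1.46 in the failed and -0.82 in the normal heart. The ChIP level of the list was 0.32 above all genes in the failed and 0.21 above in the normal heart. Its median against H3ac ChIP was 0.13 in the failed and 0.25 in the normal heart. Against K20me3 ChIP it was 0.04 in the failed and 0.06 in the normal heart, and against K9me2 ChIP 0.04 and -0.09. Over pre-IP the list was also high for K4me2 (0.75 in the failed, 0.19 in the normal heart), K4me3 (0.30, 0.22) and K9me2 (0.29, 0.45). For K9me3 it had -0.07 in the failed and 0.12 in the normal heart.

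Other lists of genes with little role in ventricular muscle had varied medians. Cytochrome P450 genes were level with the cytokine list in the failed heart, and imprinted genes were above it in the normal heart. Cytochrome P450 genes (42) had 0.36 in the failed and 0.09 in the normal heart, with 19 above 0 and 8 below 0 in both. Their ChIP level was below that of all genes, by 0.26 in the failed and 0.56 in the normal heart. Liver genes (31) had 0.18 in the failed and 0.14 in the normal heart and also a ChIP level below all genes. Neuronal receptor genes (73) had 0.02 in the failed and 0.11 in the normal heart, other neuronal genes (35) -0.04 in both, imprinted genes (19) 0.12 in the failed and 0.26 in the normal heart, and zinc finger genes with Zfp symbols (229) 0.01 in the failed and 0.06 in the normal heart. Among marker lists, atrial muscle (5 genes) had 0.66 in the failed and 0.80 in the normal heart, adipocytes (5) 0.39 in the failed and 0.79 in the normal heart, and red blood cells (4) 0.54 in the failed and 0.55 in the normal heart. For the last of these the ChIP level was 0.24 above all genes in the failed and 0.28 below in the normal heart. Skeletal muscle markers (8) had 0.27 in the failed and -0.11 in the normal heart, macrophage and leukocyte markers (19) -0.17 in the failed and 0.14 in the normal heart, smooth muscle markers (10) -0.02 in the failed and -0.35 in the normal heart, fibroblast markers (13) -0.26 in the failed and -0.02 in the normal heart, and endothelial markers (11) -0.39 in the failed and -0.40 in the normal heart. Lists with little mRNA in heart thus lay on both sides of 0, with germline and cytokine genes above genes at large, developmental factors below, and neuronal genes near them.

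**Figure D3:**
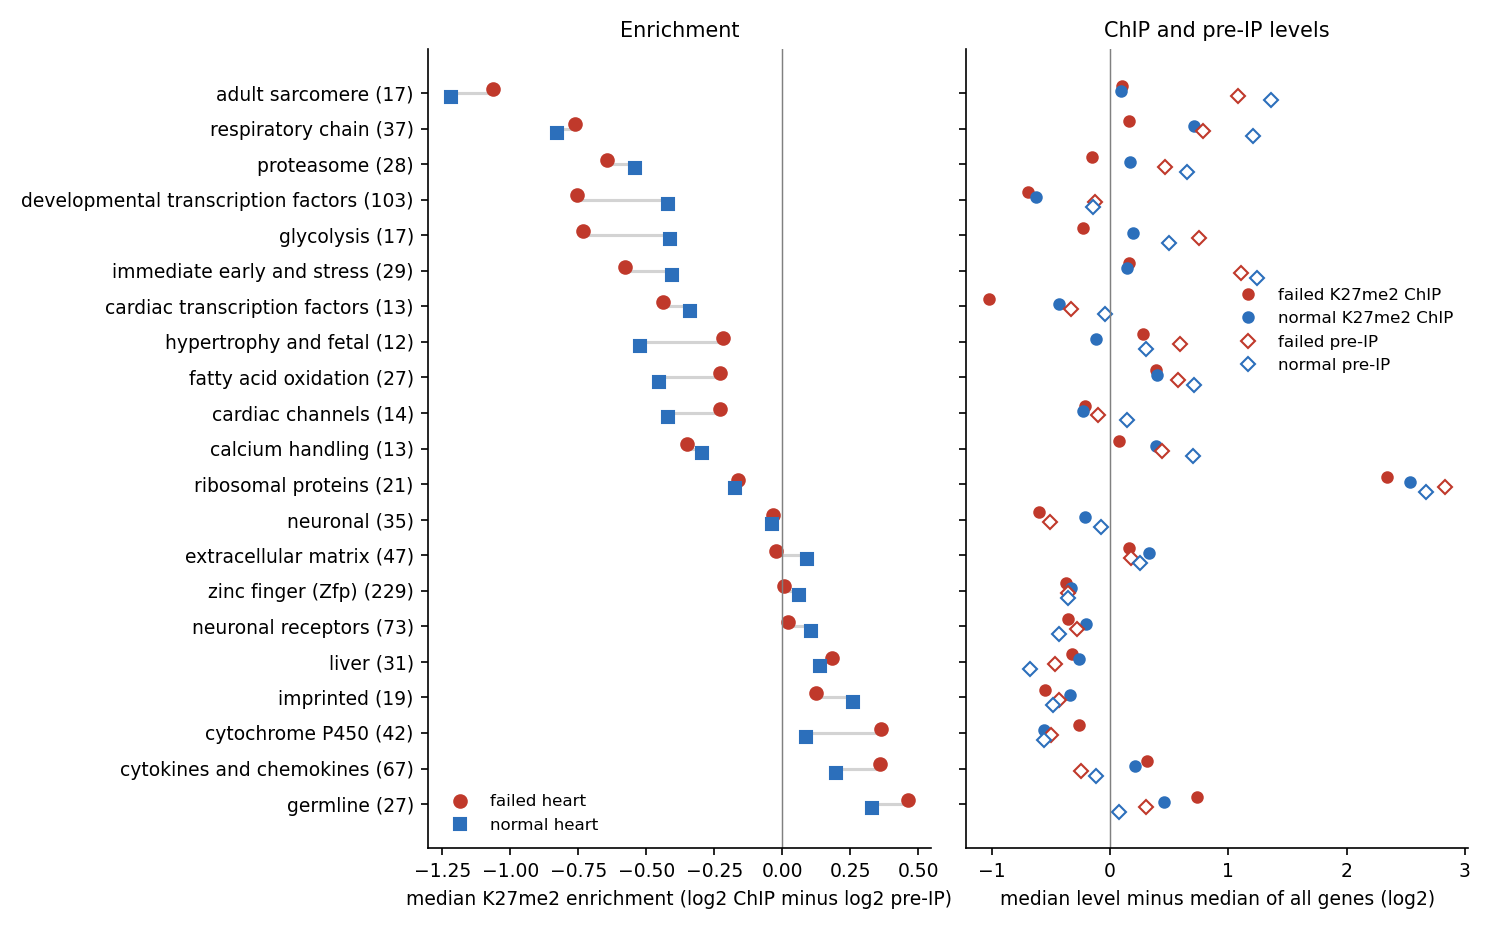
Median over the genes of each list (measured members in brackets). Left: K27me2 enrichment in the failed (red circle) and normal (blue square) heart. Right: ChIP level (filled) and pre-IP level (open diamonds), minus the median of all genes. Sarcomere, respiratory chain and immediate early genes have pre-IP levels far above 0 and ChIP levels above 0, developmental factors have ChIP levels below their pre-IP levels and below 0, and germline and cytokine genes have ChIP levels above both.

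Differences between the failed and the normal heart were spread over many single genes. Of the 6991 genes, 479 (6.85%) had higher enrichment in the failed heart by 2-fold or more and 442 (6.32%) had lower enrichment by as much. The pre-IP arrays entered much of this: of these 921 genes (13.2%), 167 (18.1%) also had a ChIP difference of at least 1 in the same direction, 274 (29.8%) had a pre-IP difference of at least 1 in the opposite direction, and for 105 (11.4%) the ChIP difference had the opposite sign. The standard deviation across genes was 0.67 for the enrichment difference, 0.52 for the ChIP difference and 0.58 for the pre-IP difference. ChIP levels alone differed by 2-fold or more for 5.54% of genes, higher in the failed heart for 203 (2.9%) and lower for 184 (2.63%). Pre-IP levels, which come from genomic DNA, did so for 8.11%, higher for 307 (4.39%) and lower for 260 (3.72%). Genes past 2-fold in the same direction for both enrichment and ChIP numbered 95 higher (1.36%) and 72 lower (1.03%).

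Differences also recurred little between probe sets of a gene. For the 1775 genes with at least 2 probe sets passing the level filter, Pearson's r across genes between probe sets was 0.48 for enrichment in the failed and 0.39 in the normal heart, and 0.50 for their mean. For the difference it was 0.089, for the ChIP difference 0.18 and for the pre-IP difference 0.12. Probe positions were not used, and probe sets of a gene may lie close together.

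**Figure D4:**
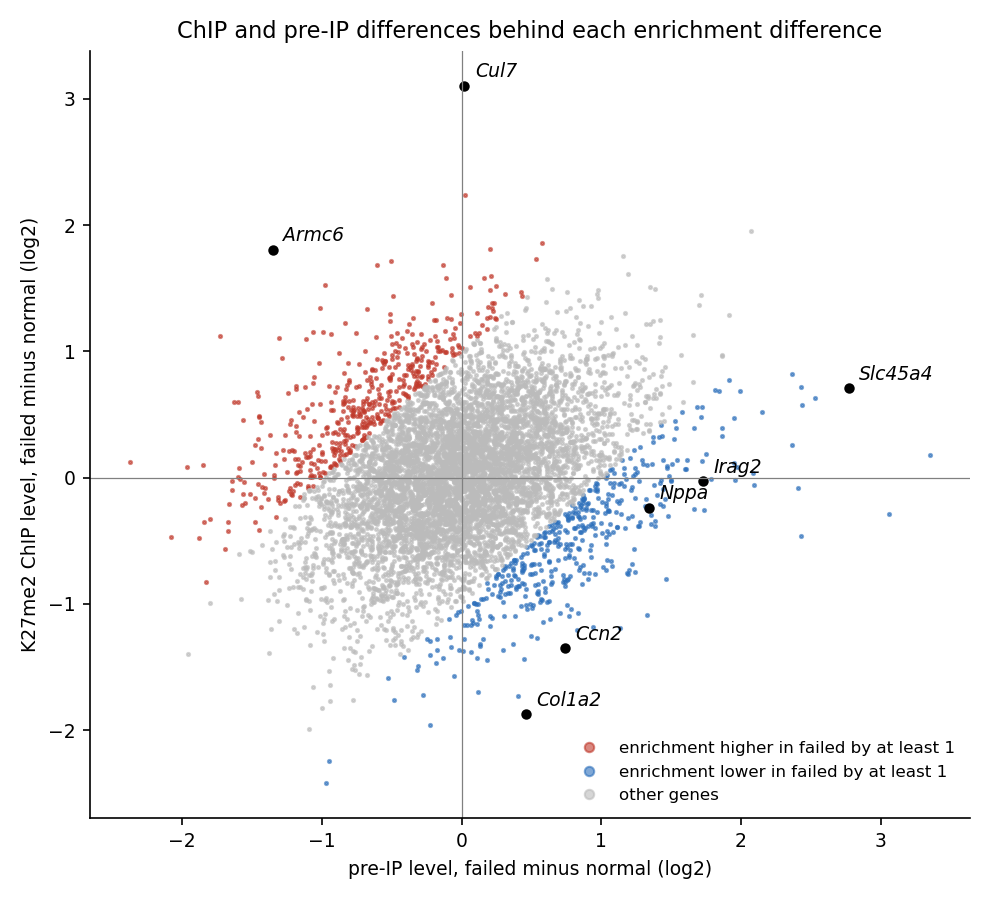
ChIP level difference (y axis) against pre-IP level difference (x axis), failed minus normal on the log2 scale, for the 6991 genes. Red points are the 479 genes whose enrichment was at least 1 higher in the failed heart and blue points the 442 at least 1 lower. Cul7 and Col1a2 differ in ChIP, whereas Irag2 and Slc45a4 differ in pre-IP.

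Genes were named for a difference where enrichment and ChIP moved together. Cul7, a scaffold of a ubiquitin ligase, had ChIP levels of 155 in the failed and 18.0 in the normal heart, with pre-IP levels of 196 in the failed and 193 in the normal heart. The normal ChIP array was the low one, and the pre-IP arrays were alike. Its difference was 3.08 in enrichment and 3.10 in ChIP, while its mRNA was 364 in the failed and 357 in the normal heart. Armc6 had the higher difference in enrichment, 3.16, of which 1.81 lay in ChIP and -1.35 in pre-IP. Pou1f1, a pituitary transcription factor, had ChIP levels of 222 in the failed and 46.9 in the normal heart and a difference of 2.22, but 0.12 at its second probe set.

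Mb, which encodes the oxygen store myoglobin, had ChIP levels of 151 in the failed and 47.0 in the normal heart and pre-IP levels of 179 in the failed and 272 in the normal heart. Its enrichment was -0.24 in the failed and -2.53 in the normal heart, and its mRNA was also higher in the failed heart, at 15434 against 5202 in the normal heart. Stat5b, a transducer of growth hormone and cytokine signals, differed by 2.22 in enrichment and 1.72 in ChIP. The neuronal chloride transporter gene Slc12a5 differed by 1.81 and 1.68, the phosphatase gene Ppp4c by 1.69 and 1.58, the kynurenine aminotransferase gene Kyat1 by 2.51 and 1.53, and the surfactant protein gene Sftpc by 1.53 and 1.45. Smap2, a regulator of Arf GTPases, differed by 1.61 at the probe set used, and its 4 probe sets ran from -0.40 to 1.61. None of these 10 genes is in any of the lists used, and 8 of them have 1 probe set.

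Col1a2, a chain of type I collagen, led the genes lower in the failed heart. Its ChIP levels were 56.1 in the failed and 205 in the normal heart and its pre-IP levels 199 in the failed and 144 in the normal heart, a difference of -2.33 in enrichment and -1.87 in ChIP. The failed ChIP array was the low one. Its mRNA was 9467 in the failed and 3056 in the normal heart. The second probe set of Col1a2 differed by -0.27 in enrichment and -0.13 in ChIP. Psmd6, a proteasome lid subunit, had ChIP levels of 45.1 in the failed and 134 in the normal heart and pre-IP levels of 153 in the failed and 159 in the normal heart. Gnpnat1, an enzyme of hexosamine synthesis, had ChIP levels of 75.1 in the failed and 244 in the normal heart over pre-IP levels of 247 in the failed and 228 in the normal heart.

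The other 7 genes lower in the failed heart were Cmpk2, a mitochondrial nucleotide kinase (-1.74), Ppp1r36 (-2.13), Cstdc1 (-1.45), Slc13a1, a sulfate transporter of kidney (-1.63), Med1, a subunit of the Mediator complex (-1.44), Pdpk1, a kinase upstream of Akt (-1.88), and Trmt2a, a tRNA methyltransferase (-1.54). At its second probe set Trmt2a differed by -1.41 in enrichment but by -0.27 in ChIP, against -1.43 in ChIP at the probe set used. Cmpk2 had 0.28 and Pdpk1 -0.06 at the other probe set. Slc13a1 and Med1 each had a probe set at 0.46.

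**Figure D5:**
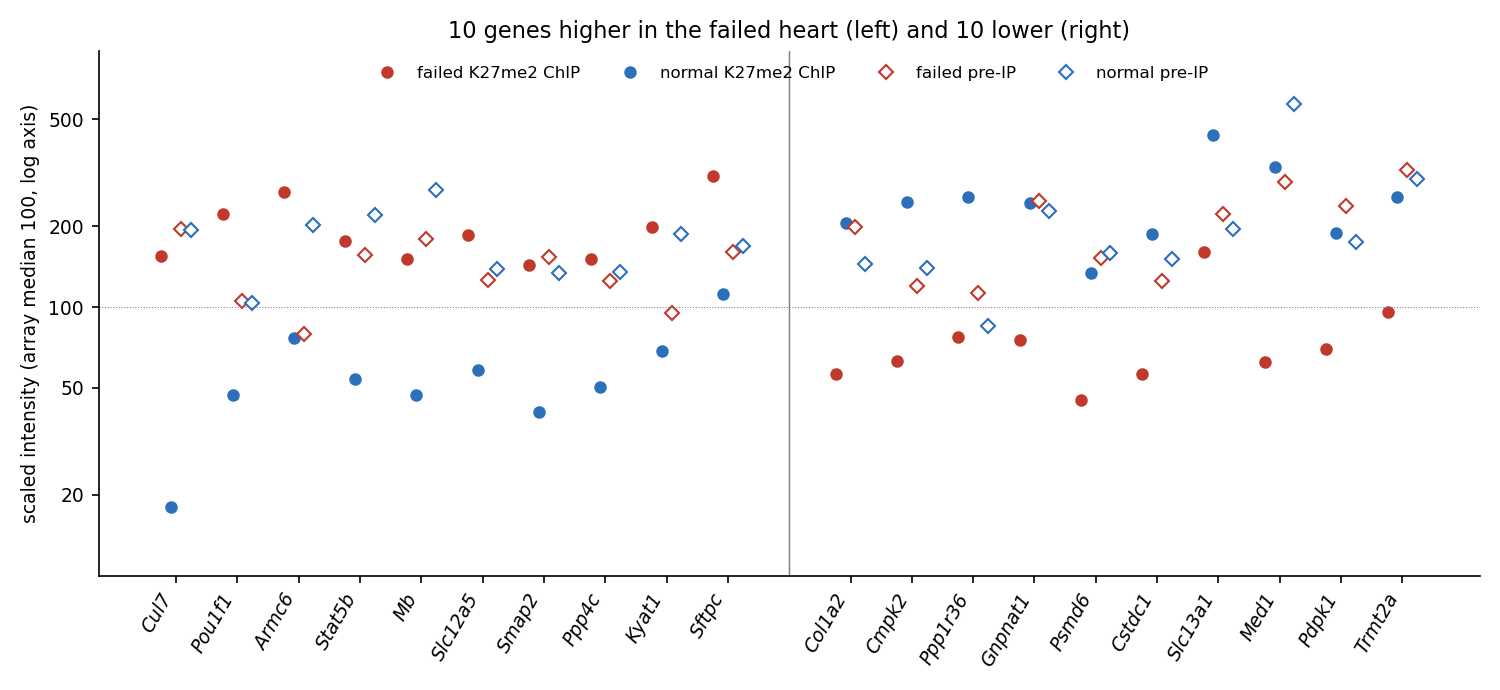
Scaled intensity (array median 100, log axis) on each of the 4 arrays for the 10 genes named as higher in the failed heart (left) and the 10 named as lower (right). Red is the failed and blue the normal heart, filled circles are K27me2 ChIP and open diamonds pre-IP. The filled circles are far apart by the rule that chose the genes, and the open diamonds lie closer together for most of them.

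The 14 genes known for heart failure and its metabolism had no common direction of difference. Nppb, which encodes brain natriuretic peptide, had enrichments of -1.98 in the failed and -2.60 in the normal heart, with mRNA of 11114 in the failed and 2017 in the normal heart. It was depleted in both hearts. Nppa, which encodes atrial natriuretic peptide, had -0.30 in the failed and 1.28 in the normal heart. Of this difference of -1.58, -0.24 lay in the ChIP arrays, at 144 in the failed and 169 in the normal heart, and 1.34 in the pre-IP arrays, at 177 in the failed and 69.8 in the normal heart. Ccn2, the connective tissue growth factor gene, had ChIP levels of 66.5 in the failed and 169 in the normal heart and pre-IP levels of 332 in the failed and 199 in the normal heart, a difference of -2.09 in enrichment and -1.35 in ChIP.

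Ankrd1, a stress gene of the sarcomere, had -2.27 in the failed and -2.62 in the normal heart, and Acta1, skeletal actin, -1.01 in the failed and -1.43 in the normal heart. Myh6, the fast myosin heavy chain, had a ChIP level under the floor in the normal heart and of 123 in the failed heart, with pre-IP levels of 114 in the failed and 239 in the normal heart. Its second probe set differed by 0.40 in enrichment and 0.26 in ChIP. Postn, a matrix protein of injured heart with mRNA of 8257 in the failed and 301 in the normal heart, had 0.32 in the failed and 0.50 in the normal heart. Col1a1 had -0.91 in the failed and -0.52 in the normal heart, Col3a1 -0.22 in the failed and -0.38 in the normal heart, and the protease inhibitor gene Timp1 -0.07 in the failed and 0.03 in the normal heart. Cpt1b, which carries fatty acids into mitochondria, had -1.52 in the failed and -0.45 in the normal heart, a difference of -1.06 with -0.45 in ChIP. Pdk4, a kinase that restrains glucose oxidation, had 0.45 in the failed and -0.21 in the normal heart.

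By list, the share of members past 2-fold is read beside 6.85% higher and 6.32% lower over the 6991 genes. Of 12 sarcomere genes that passed the filter, 4 were higher in the failed heart and 0 lower. They were Mybpc3, myosin-binding protein C (1.31, with 1.12 in ChIP), Tnnt2, cardiac troponin T (1.24, with 1.19 in ChIP), Myl3, a myosin light chain (1.48, with 0.92 in ChIP), and Tnnc1, troponin C (1.31, with 0.79 in ChIP), named here after their values were seen. All 4 had a higher ChIP level and a lower pre-IP level in the failed heart. For Tnnt2 the ChIP levels were 124 in the failed and 54.6 in the normal heart over pre-IP levels of 299 in the failed and 309 in the normal heart, and its second probe set differed by 1.30 in enrichment and 1.29 in ChIP. The other 3 have 1 probe set. The list's mRNA differed by a median of 1.06.

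Of 27 extracellular matrix genes 0 were higher and 4 lower. Beside Ccn2 and Col1a2 these were Tnc, the matrix protein tenascin C (-1.55, with -0.83 in ChIP), and Col4a1, a basement membrane collagen (-1.47, with -0.82 in ChIP). Of 21 immediate early genes 1 was higher, Fosb, and 4 were lower, Zfp36, Ier2, Ier3 and Jund. For Ier2 and Ier3 the pre-IP difference, 1.19 and 1.33, was the main part, with -0.32 and 0.10 in ChIP. Of 31 respiratory chain genes 2 were higher and 0 lower, cytokine and chemokine genes had 4 higher and 2 lower of 31, and developmental factors 1 higher and 3 lower of 38.

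Over whole lists, the median difference was 0.17 for sarcomere genes, with 0.27 in ChIP, and -0.05 for extracellular matrix genes, with -0.08 in ChIP. It was -0.28 for developmental factors, with -0.07 in ChIP, and 0.54 for the 12 hypertrophy and fetal genes, with 0.43 in ChIP, against -0.01 over all genes. Of the 12 hypertrophy and fetal genes 6 passed the level filter, and of these 0 were past 2-fold higher and 1 was lower. With the floor raised to 50 the median difference of the 12 was 0.34. The list farthest from 0 held the 3 measured demethylase genes, at -0.92 with -1.03 in ChIP. Of the 3, 1 passed the level filter, Kdm6b, which went the other way at 0.97 with 0.59 in ChIP. With the floor raised to 50 the median of these 3 genes was 0. Genes of Polycomb repressive complex 1 (17) had -0.42, with -0.09 in ChIP and 0.39 in pre-IP, and other chromatin enzyme genes, among them acetyltransferases, deacetylases and methyltransferases of other lysines (16), had -0.06.

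Genes whose mRNA differed between the hearts had shares of K27me2 differences near those of all genes. Of 1026 genes with mRNA at least 2-fold higher in the failed heart (14.7%), 65 (6.34%) had K27me2 higher and 72 (7.02%) lower. Of 590 with mRNA at least 2-fold lower (8.44%), 39 (6.61%) had K27me2 higher and 30 (5.08%) lower. The shares over all 6991 genes were 6.85% and 6.32%. The median difference was -0.01 in the first and 0.12 in the second set, against 0.03 over all 6991. The rank correlation of the K27me2 difference with the mRNA difference was -0.02 for enrichment and -0.03 for ChIP.

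The measured genes of the complex that places the mark, and of the demethylases, differed by less than 2-fold in mRNA between the failed and the normal heart. Kdm6a was not among the 3 measured demethylase genes. The median mRNA difference was 0.36 over the complex and 0.13 over the demethylases, against 0.15 over all genes. Differences over 10 measured genes of Polycomb repressive complex 2 and 3 of lysine 27 demethylases ran from -0.36 for Jarid2, which helps bring the complex to chromatin, to 0.61 for Rbbp7, a histone-binding subunit. Ezh1 had mRNA of 933 in the failed and 774 in the normal heart, and Ezh2 229.9 in the failed and 214 in the normal heart. The demethylase gene Kdm6b had 174 in the failed and 159 in the normal heart. Their own K27me2 varied. Ezh1 was depleted in both hearts, with ChIP levels of 98.9 in the failed and 112 in the normal heart and pre-IP levels of 458 in the failed and 368 in the normal heart. Eed, with 0.56 in the failed and -0.20 in the normal heart, and Ezh2, with -0.36 in the failed and 0.50 in the normal heart, lay on opposite sides of 0. Of the demethylase genes, Kdm6b had -0.37 in the failed and -1.34 in the normal heart, a difference of 0.97 with 0.59 in ChIP. Phf8 had -1.18 in the failed and 0.18 in the normal heart, with ChIP levels of 19.9 in the failed and 43.2 in the normal heart, and Kdm7a -0.56 in the failed and 0.36 in the normal heart, with ChIP levels of 50.4 in the failed and 103 in the normal heart. Phf8 and Kdm7a were lower in the failed heart but too dim to pass the level filter. Suz12 was at the floor on both arrays of the failed heart.

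K27me2 had more depleted than enriched genes, as did K9me2, K9me3 and K20me3. The share of genes depleted at least 2-fold in both hearts was 6.41% for K27me2 and, among the genes that passed the filter for each mark, 8.67% for K9me2, 4.85% for K9me3 and 3.96% for K20me3, and at most 1.32% for H3ac, H4ac, K4me2 and K4me3. The share enriched in both was 1.46% for K27me2 and 1.33% for K20me3, and 9.79% for H3ac and 17.8% for K4me2. All marks of a heart share its pre-IP array. For sarcomere genes the median enrichment was -1.07 in the failed and -1.22 in the normal heart for K27me2, -0.93 in the failed and -1.27 in the normal heart for K20me3, and 0.35 in the failed and 0.36 in the normal heart for H3ac.

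Markers of heart muscle and of other cells were read on the mRNA arrays. Myh7 at 38414 in the failed and 12569 in the normal heart, and Tnnt2 at 30613 in the failed and 18852 in the normal heart, were far above the array median of 100. Marker lists of other cells differed in mRNA by a median of 0.89 for fibroblasts (13 genes), 1.0 for macrophages and leukocytes (19), -0.47 for endothelium (11) and -1.10 for smooth muscle (10). Their K27me2 enrichment differed by -0.18, -0.48, -0.07 and 0.31 in the same order, with ChIP differences of -0.19, -0.07, 0.07 and 0.28. In such bulk tissue a different share of cells and a different mark per cell cannot be told apart, and the part of cell makeup in the K27me2 differences was not tested. On the X chromosome the 444 measured genes were lower than all genes by 1.14 in the failed and 0.96 in the normal K27me2 array and by 1.07 in the failed and 0.91 in the normal pre-IP array. Their median enrichment was 0.00 in the failed and -0.07 in the normal heart.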

How the data were processed

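The authors deposited 1 linear intensity for each of 31099 probe sets (57 of them controls) on each array; after removal of 2% of values at each end every array had a mean between 500.03 and 500.17, as scaling by the authors to a common target gives. The summarising tool is not given in the sources here. Per the labels' protocols, DNA was fragmented, amplified through T7 transcription and labelled. Of the probe sets 20826 had 1 gene in the platform annotation, 436 had several and 9780 had no entry, and only the first kind was used. A gene was represented by its probe set of highest mean mRNA signal (14217 genes, 4525 with 2 or more probe sets), and 20758 probe sets matched the current gene table. Genes at the floor on any of the 4 arrays numbered 686.

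Each array was scaled to a median of 100, floored at 10 and put on the log2 scale. No test was possible with 1 array per group, and the number of arrays limits the precision. Named genes were the 10 highest and 10 lowest mean enrichments with no value at the floor, the 10 differences each way with the highest smaller size of enrichment and ChIP difference, up to 4 members per list, 14 heart failure genes and all measured lysine 27 enzymes; Hox genes, Cox5a and Cox4i1 as the exceptions of their list, Tnnt2, the genes listed by difference within a list, and the K27me2 comparison with other ChIP arrays were chosen after values were seen. The members, all 33 gene lists and the rules were chosen with earlier results of these data known. Counting was tested on simulated data with known changes. Alternatives were other scalings, floors, probe sets, level filters, pre-IP references and sizes. Python 3.11.15, pandas 2.3.3, numpy 2.4.6 and matplotlib 3.10.9 were used.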

Additional observations from a re-analysis of the deposited data

Results flagged for a closer look

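For 6 genes K27me2 enrichment was at least 2-fold above pre-IP in one heart and at least 2-fold below it in the other. The differences, failed minus normal on the log2 scale, rest on 1 array each way and were not tested.

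Armc6 had an enrichment of 1.76 in the failed and -1.40 in the normal heart, a difference of 3.16, with 1.81 in ChIP and -1.35 in pre-IP. Kyat1 had 1.06 in the failed and -1.45 in the normal heart, a difference of 2.51, with 1.53 in ChIP and -0.98 in pre-IP. Vwa1, an extracellular matrix protein gene, had a difference of 2.36. Pou1f1 had 1.07 in the failed and -1.15 in the normal heart, a difference of 2.22 that lay almost wholly in ChIP, and its second probe set differed by 0.12.

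Lower in the failed heart were Mau2 and Nr3c2. Mau2, which helps load cohesin onto DNA, had -1.14 in the failed and 1.28 in the normal heart, a difference of -2.42. Its 5 probe sets ran from -2.42 to 1.0. Nr3c2, the mineralocorticoid receptor, had ChIP levels of 115 in the failed and 263 in the normal heart and pre-IP levels of 240.1 in the failed and 109.6 in the normal heart, a difference of -2.32 in enrichment and -1.19 in ChIP. Its mRNA was 282 in the failed and 272 in the normal heart. Nr3c2 has a single probe set on the array.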

How the results depend on the processing

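Counts of genes were taken as stable within 1.5 times, the rank correlation within 0.1 and list medians within 0.25, with a list called at a median of 0.5 in size. Of the main counts, 102 genes enriched in both hearts became 203 with values as deposited, 362 with quantile normalization, 270 with no filter on level, 1679 without pre-IP and 9 at a size of 1.5. The 448 depleted in both became 674 with the probe set of highest pre-IP signal, 708 with no filter, 3 without pre-IP and 142 at 1.5. The 479 higher and 442 lower in the failed heart became 730 and 737 with quantile normalization, 1435 and 1743 with no filter, 203 and 184 both without pre-IP and with the mean of both pre-IP arrays, 887 and 803 with the pre-IP of the other heart, and 94 and 112 at 1.5. The rank correlation with mRNA was 0.0021 in the failed and 0.058 in the normal heart without pre-IP. The sign thus changed, but both values were near 0, so the relation was absent and not opposite. The rank correlation between the hearts (0.59) was 0.69 without pre-IP, 0.72 with the mean of both pre-IP arrays and 0.40 with that of the other heart. Of 18 called list medians under 5 alternatives, 70 of 90 values were stable, 13 moved and 7 changed sign, all 7 without pre-IP: adult sarcomere 0.10 in the failed and 0.092 in the normal heart, respiratory chain 0.16 in the failed and 0.71 in the normal heart, proteasome 0.17 and red blood cell -0.28 in the normal heart, and immediate early 0.16 in the failed heart. Among other list medians 55 of the remaining values moved. The causes were not tested, except that no filter adds genes and a size of 1.5 removes them by construction. By construction too, the mean of both pre-IP arrays cancels in the difference, so its counts of differing genes equal those without pre-IP. No paired analysis was possible because each group has 1 array. Dim probe sets limit the lists with many members near the floor, such as developmental factors.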

Other observations

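Gene families defined by the stem of the symbol, added after the data were seen, gave classes beyond the lists. Of 103 families with at least 15 measured genes, 28 had medians below 0 and 45 above 0 in both hearts. The counts below are read beside 33.2% above 0 and 32.1% below 0 in both hearts over all genes. At the low end, the 26 Cox genes had -0.53 in the failed and -0.56 in the normal heart, with 16 below 0 and 5 above 0 in both. The 34 Rbm genes, RNA-binding proteins, had -0.30 in the failed and -0.47 in the normal heart, with 19 below 0 and 7 above 0 in both. The 46 Mrpl genes, of the large mitochondrial ribosome subunit, had -0.28 in the failed and -0.48 in the normal heart, while the 27 Mrps genes, of the small subunit, were near 0 with -0.04 in the failed and 0.0057 in the normal heart. The 15 Kdm genes, histone demethylases, had -0.46 in the failed and -0.51 in the normal heart. At the high end, the 23 Prss genes, serine proteases, had 0.35 in the failed and 0.34 in the normal heart, with 10 above 0 and 2 below 0 in both. The 19 Cfap genes, of cilia and flagella, had 0.23 in the failed and 0.46 in the normal heart, with 11 above 0 and 3 below 0 in both. The 63 Cd genes, surface proteins mostly of blood cells, had 0.27 in the failed and 0.30 in the normal heart, with 34 above 0 and 13 below 0 in both. The level filter was passed by 4 of 15 Kdm, 14 of 34 Rbm, 6 of 19 Cfap, 11 of 23 Prss and 32 of 63 Cd genes. It was passed by 21 of 26 Cox, 32 of 46 Mrpl and 20 of 27 Mrps genes. No family median differed between the hearts by more than 0.52.

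Among skeletal muscle markers, Myh1, a fast skeletal myosin, was far brighter on the DNA arrays than its neighbours in that list. Its ChIP levels were 10588 in the failed and 18041 in the normal heart and its pre-IP levels 35002 in the failed and 38423 in the normal heart, where the array median is 100. Whether its probes bind a repeated sequence could not be checked, so they are given as the level of a probe set and not of the Myh1 gene. Its mRNA level was 22459 in the failed and 30734 in the normal heart.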
